A study of Mus musculus with 14 samples.

Results

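The cytosolic ribosomal protein genes are those that encode the protein parts of the ribosome outside mitochondria. They were chosen by name: a symbol of Rpl or Rps followed by a number and at most 1 letter, or Rplp0, Rplp1, Rplp2 or Rpsa, with pseudogenes and the Rps6k kinases left out. By this rule 58 of the 19938 measured genes were members, 21 of the small subunit and 37 of the large subunit. RefSeq lists 81 protein-coding mouse genes with such symbols. The other 23, among them Rpl3, Rpl39 and Rps27, had no probe here that reads 1 gene alone and were not analysed. Rps4l fits the symbol rule but is a transcribed pseudogene in RefSeq and was left out.

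The values come from Affymetrix mouse gene arrays of tumour-free liver of female mice at 14 months. Wild-type mice were C57BL/6 (n = 3 arrays), Mdr2-KO mice lacked Mdr2 (n = 5), and Mdr2-KO/IL6-KO mice, the double knockout, lacked both Mdr2 and the cytokine IL-6 (n = 6). Mdr2 is the older name of Abcb4, which moves phosphatidylcholine into bile, and its loss gives chronic bile duct injury. The labels give a strain for wild type alone, so strain and genotype cannot be told apart, and they do not say that each array is a separate mouse, so p-values measure the spread between arrays. Values are log2 signals, 1 log2 unit being a doubling, and a call means an adjusted p under 0.05 in limma with Benjamini-Hochberg adjustment over all 19938 genes. Wild-type arrays gave 10.36 ± 0.03 (SD) for Abcb4 itself, Mdr2-KO arrays 9.01 ± 0.19 and double-knockout arrays 9.05 ± 0.20, whereas Il6 lay under the array background in every group and cannot check the labels. That background is 5.48, a value that 95% of 1027 olfactory receptor genes, a class used in nasal tissue, do not reach. Hepatocyte markers (9 of 10 measured, Alb among them) averaged 12.44 to 12.66 on every array.

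A ribosome is built from ribosomal RNA and about equal copies of each ribosomal protein. The small subunit reads the messenger RNA and the large subunit joins the amino acids. In vertebrates most ribosomal protein messengers begin with a C followed by a run of C and T, the terminal oligopyrimidine (TOP) tract. Through this tract mTORC1 and LARP1 control how strongly they are translated. Several ribosomal protein genes carry small nucleolar RNAs (snoRNAs), which guide the modification of ribosomal RNA, in their introns. In the mouse many have processed pseudogene copies that array probes can also read.

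RefSeq's promoter table (GRCm38.p6) held 47 of the 58 members. The stretches below are those of the members with the largest called rises and falls in Mdr2-KO that the table holds and that read above the background. Each runs from 50 bases before to 20 bases after the first annotated gene start, 5′ to 3′ on the strand of the gene, with the longest run of C and T in capitals. The first 4 rose in Mdr2-KO and the last 4 fell.
Rps21 (chr2:180257329-180257398, plus strand): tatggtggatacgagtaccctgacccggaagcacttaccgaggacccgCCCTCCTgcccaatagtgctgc
Rps12 (chr10:23787190-23787259, minus strand): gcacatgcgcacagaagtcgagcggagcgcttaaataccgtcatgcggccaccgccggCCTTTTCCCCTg
Rps28 (chr17:33824543-33824612, minus strand): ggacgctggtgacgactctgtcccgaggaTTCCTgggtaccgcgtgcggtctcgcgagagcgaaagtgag
Rpl5 (chr5:107900478-107900547, plus strand): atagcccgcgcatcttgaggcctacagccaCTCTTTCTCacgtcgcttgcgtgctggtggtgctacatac
Rpl6 (chr5:121204451-121204520, plus strand): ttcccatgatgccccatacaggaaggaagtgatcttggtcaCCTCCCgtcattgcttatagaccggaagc
Rpl4 (chr9:64173337-64173406, plus strand): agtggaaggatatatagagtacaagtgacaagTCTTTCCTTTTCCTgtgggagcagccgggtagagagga
Rpl28 (chr7:4792915-4792984, plus strand): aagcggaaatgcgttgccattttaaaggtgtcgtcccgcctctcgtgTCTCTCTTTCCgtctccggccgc
Rps10 (chr17:27635225-27635294, minus strand): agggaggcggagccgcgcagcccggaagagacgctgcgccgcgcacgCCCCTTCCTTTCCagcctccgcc

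Within 50 bases on either side of the start, a run of at least 8 C or T letters on the gene strand was present in 36 of the 47 members (76.6%) and in 35.7% of 27025 promoters. Members that rose in Mdr2-KO held it in 9 of 14, those that fell in 5 of 5 and those that did not pass in 22 of 28. The run was thus found in members that rose and in members that fell. In the whole 300-base promoter, both strands searched, the ETS core CCGGAAG that GABP binds occurred in 17 of 47 members (36.2%) and in 9.1% of promoters. The YY1 motif AAGATGGC occurred in 1 member (2.9% of promoters), the TATA box TATAAA in 5 (14.2%) and the E-box CACGTG in 4 (7.2%). The ETS core was in 4 of the 14 that rose and 2 of the 5 that fell. Annotated starts can lie some bases from the start used in liver, and a match is a match of letters.

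Loss of Mdr2 was set against wild type first. In Mdr2-KO liver 20 of the 58 members rose (34.5%, against 8.89% of all genes tested) and 6 fell (10.3%, against 12.1% of all genes), while 32 did not pass. The rises were carried by small-subunit genes such as Rps21, Rps12, Rps29 and Rps28 and by large-subunit genes such as Rpl7, Rpl5 and Rpl8, by up to 2.26-fold. The falls were smaller, led by Rps20 at 0.737 of the wild-type level. The share that fell was close to that of all genes. The arrays of the 2 groups did not overlap for 24 members that were higher (10.3% of all genes) and 6 that were lower (13.2% of all genes). The median log2 difference was 0.116 over the members and -0.0726 over all genes. Without wild-type array 3 the counts were 13 that rose and 3 that fell, and after quantile normalization 23 and 2.

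**Figure D1:**
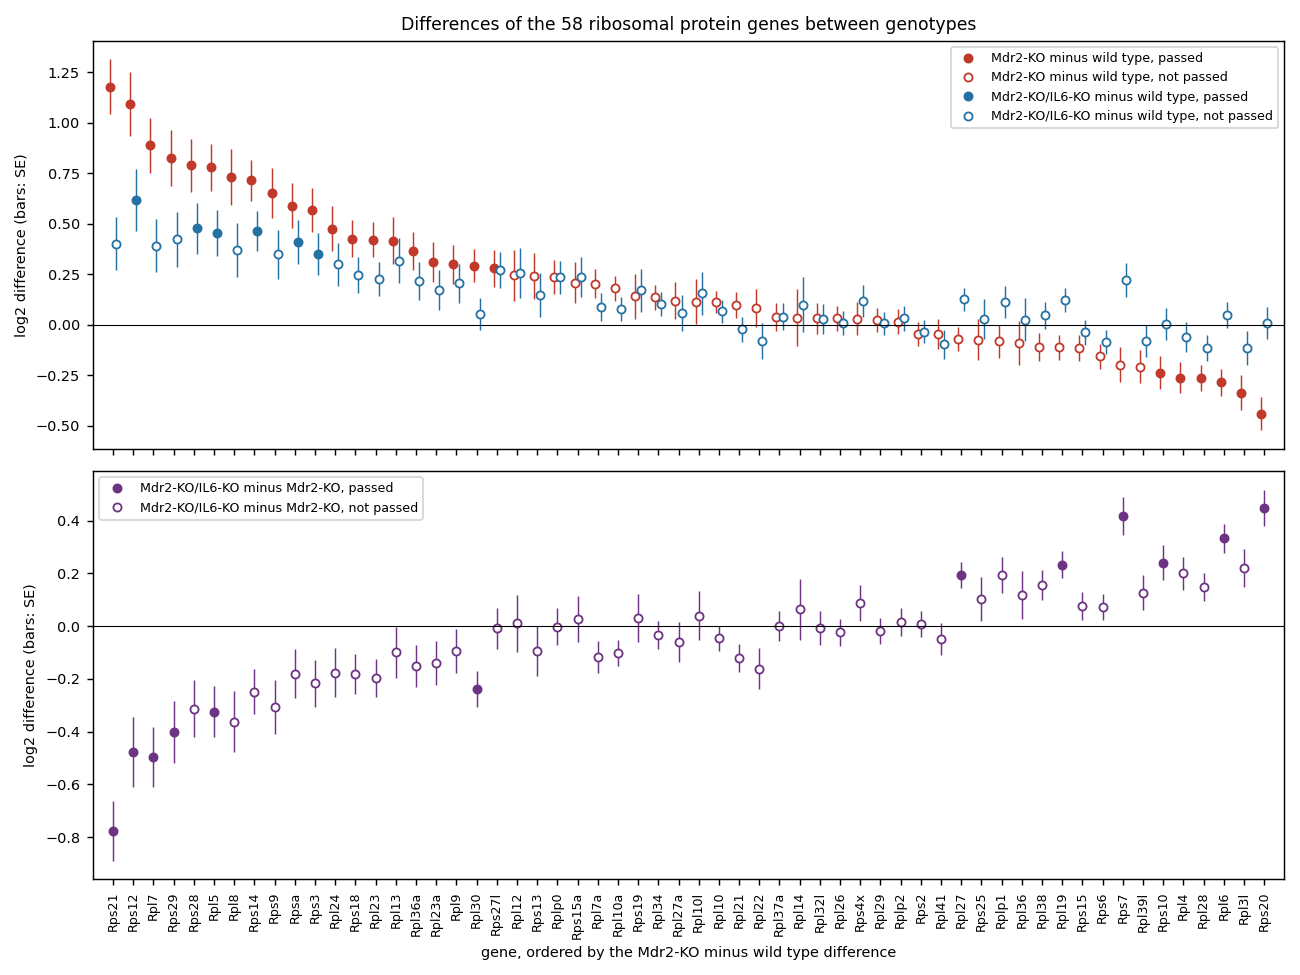
The upper plot gives the log2 difference of each of the 58 genes from wild type in Mdr2-KO (red) and Mdr2-KO/IL6-KO (blue), and the lower plot the difference of Mdr2-KO/IL6-KO from Mdr2-KO (purple). Bars are standard errors and filled points passed the test. Genes run from Rps21 (1.18 in Mdr2-KO against wild type) to Rps20 (-0.44), and the comparisons share arrays.

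Small-subunit members rose in 10 of 21 (8.89% of all genes), fell in 2 (12.1% of all genes) and did not pass in 9. Rps21, a small-subunit protein found only in eukaryotes, read 7.90, 7.83 and 7.55 in wild type and 8.81, 9.0, 8.97, 8.94 and 8.97 in Mdr2-KO. In Mdr2-KO/IL6-KO it read from 7.73 to 8.51, with a median of 8.19. All Mdr2-KO arrays lay above all arrays of both other groups, and those other groups overlapped. The rise in Mdr2-KO was 1.18 log2 units (SE 0.14, limma adjusted p = 6.02e-05).

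Rps12, which sits at the beak of the small subunit, read 9.51, 9.18 and 8.64 in wild type and 10.17, 10.08, 10.24, 10.25 and 10.26 in Mdr2-KO. In Mdr2-KO/IL6-KO it ranged from 9.41 to 10.02, with a median of 9.73. Wild-type array 3 was the lowest of all, and the Mdr2-KO arrays again lay above the rest. The difference was 1.09 (SE 0.16, limma adjusted p = 0.000363), or 2.13-fold.

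Rps29, a zinc-binding protein of the head, read 9.55, 9.35 and 9.06 in wild type and 10.20, 9.95, 10.25, 10.05 and 10.27 in Mdr2-KO, a rise of 0.82 (SE 0.14, limma adjusted p = 0.00123). Rps28, which lies near the exit of the messenger channel, read 9.96, 9.76 and 9.28 in wild type and 10.48, 10.30, 10.49, 10.44 and 10.58 in Mdr2-KO, a rise of 0.79 (SE 0.13, limma adjusted p = 0.00101). Rps14, a protein of the platform, read 9.69, 9.69 and 9.61 in wild type and 10.27, 10.27, 10.39, 10.40 and 10.56 in Mdr2-KO, a rise of 0.71 (SE 0.10, limma adjusted p = 0.000341). In none of these 3 genes did wild type and Mdr2-KO overlap. Wild type was tighter for Rps14 (SD 0.04) than for Rps28 (SD 0.35). The other small-subunit members that rose were Rps9, Rpsa, Rps3, Rps18 and Rps27l, by 0.28 to 0.65.

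Large-subunit members rose in 10 of 37 (8.89% of all genes), fell in 4 (12.1% of all genes) and did not pass in 23. Rpl7 read 10.01, 9.72 and 9.40 in wild type and 10.61, 10.57, 10.57, 10.65 and 10.58 in Mdr2-KO. Its Mdr2-KO arrays differed little from each other (SD 0.04) and lay well apart from wild type. The rise was 0.89 (SE 0.14, limma adjusted p = 0.000538).

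Rpl5 is the protein that carries a small ribosomal RNA into the large subunit and, when free, binds the p53 regulator MDM2. It read 10.38, 10.21 and 9.81 in wild type and 10.84, 10.80, 10.89, 11.07 and 10.95 in Mdr2-KO, a rise of 0.78 (SE 0.12, limma adjusted p = 0.000435). Rpl8, which lies near the catalytic centre, read 9.58, 9.34 and 9.04 in wild type and 9.98, 9.88, 10.03, 10.16 and 10.18 in Mdr2-KO. Its rise was 0.73 (SE 0.14, limma adjusted p = 0.00242). Neither gene overlapped between these groups. The other large-subunit members that rose were Rpl24, Rpl23, Rpl13, Rpl36a, Rpl23a, Rpl9 and Rpl30, by 0.29 to 0.48. When all probes were tested, 1 of 8 probes of Rpl9 was called, and not the probe used (limma adjusted p = 0.0561). Rpl30 has 1 probe and lost its call without wild-type array 3 (0.23, limma adjusted p = 0.117). Array quality weights (limma adjusted p = 0.0665) and a fit of the compared groups alone (limma adjusted p = 0.0509) also ended it.

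Of the 6 members that fell in Mdr2-KO, Rps20, a protein of the small subunit head, fell most. Wild-type arrays gave 11.61, 11.55 and 11.36 and Mdr2-KO arrays 10.99, 10.91, 11.11, 11.13 and 11.18, while double-knockout arrays ran from 11.35 to 11.63 (median 11.54). The Mdr2-KO arrays lay below every array of the other groups, which overlapped with each other. The difference was -0.44 (SE 0.08, limma adjusted p = 0.00234).

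Rpl6 read 10.93, 10.95 and 10.84 in wild type and 10.54, 10.61, 10.58, 10.65 and 10.72 in Mdr2-KO, without overlap (-0.29, SE 0.07, limma adjusted p = 0.00866). Rpl28 read 12.00, 12.06 and 12.11 in wild type and 11.84, 11.74, 11.84, 11.70 and 11.83 in Mdr2-KO, also without overlap (-0.26, SE 0.07, limma adjusted p = 0.0116). Rpl4, a protein that lines the exit tunnel, read 10.85, 10.82 and 10.78 in wild type and 10.45, 10.52, 10.56, 10.67 and 10.55 in Mdr2-KO (-0.26, SE 0.08, limma adjusted p = 0.024). These 3 falls were each smaller than 0.3 log2 units. Rps10, of the small subunit head, overlapped between the groups and passed narrowly (-0.24, SE 0.08, limma adjusted p = 0.0487). Of these 5, Rps20 and Rpl28 kept their call after quantile normalization, which ended those of Rpl6 (limma adjusted p = 0.0501), Rpl4 and Rps10. Without wild-type array 3 the calls of Rpl28 (limma adjusted p = 0.0532) and Rpl4 (limma adjusted p = 0.0521) were lost. Rpl4 also lost its call without wild-type array 1 or Mdr2-KO array 1, and Rps10 when any of 11 of the 14 arrays was left out. When all probes were tested, 1 of 3 distinct probes was called lower for Rpl6 and 0 of 3 for Rps10. The Rpl6 probes that were not called gave -0.181 and -0.151.

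**Figure D2:**
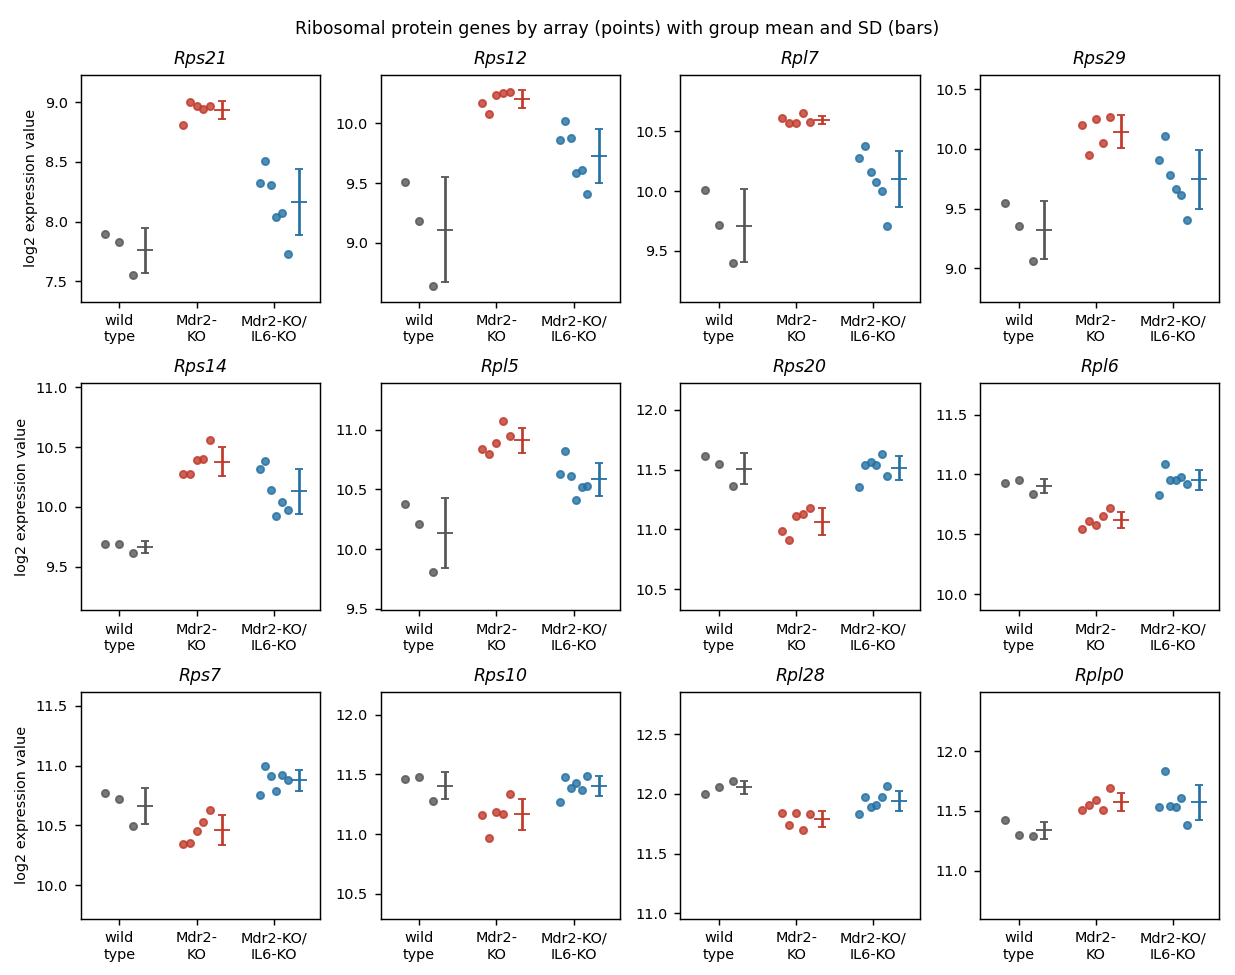
Each panel gives the log2 value of 1 gene on every array (points) by genotype, with the group mean and SD beside them, on axes of equal width. The 5 Mdr2-KO arrays stand above wild type for Rps21, Rps12, Rpl7, Rps29, Rps14 and Rpl5 and below it for Rps20, Rpl6 and Rpl28.

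The remaining fall was that of Rpl3l, the striated muscle paralog of Rpl3, which read 5.19 ± 0.14 in wild type and 4.85 ± 0.15 in Mdr2-KO. Both means lie under the array background of 5.48, so its size cannot be read (limma adjusted p = 0.0141), and its call was lost without wild-type array 3 (limma adjusted p = 0.088). Rpl39l, a paralog known from male germ cells, was under the background too, at 4.25 ± 0.10 in wild type and 4.04 ± 0.15 in Mdr2-KO. Rpl10l, a testis paralog of Rpl10, read 5.54 ± 0.04 and 5.65 ± 0.14, just over it, and did not pass (limma adjusted p = 0.467). Its partner Rpl10 read 12.10 ± 0.05 and 12.21 ± 0.04 and did not pass either (limma adjusted p = 0.161). By contrast Rps27l, the p53-inducible paralog of Rps27, was well above the background and rose from 10.89 ± 0.18 to 11.16 ± 0.09 (0.28, SE 0.09, limma adjusted p = 0.045). Rps27l has 1 probe and lost its call when all probes were tested (limma adjusted p = 0.0576) and without wild-type array 3 (0.17, limma adjusted p = 0.253). It also lost its call without Mdr2-KO array 1, 4 or 5 or double-knockout array 2, 3, 4 or 5.

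The stalk of the large subunit, which recruits translation factors, is made of Rplp0, Rplp1 and Rplp2, and none of them passed in any of the 3 comparisons. Rplp0 read 11.42, 11.30 and 11.29 in wild type and 11.51, 11.55, 11.59, 11.51 and 11.69 in Mdr2-KO, without overlap, and narrowly missed the threshold (0.24, SE 0.08, limma adjusted p = 0.0586). Rplp1 differed by -0.08 (SE 0.08) and Rplp2 by 0.01 (SE 0.06). Rplp2 has 1 probe, whose wild-type mean of 6.41 lay near the background of 5.48 and far under Rplp0 (11.34) and Rplp1 (11.91). Rpsa, the small-subunit protein also known as the laminin receptor, rose from 9.33 ± 0.25 to 9.92 ± 0.08 (0.59, SE 0.11, limma adjusted p = 0.00243). Rps6, the target of the S6 kinases, read 12.57 ± 0.07 in wild type and 12.41 ± 0.06 in Mdr2-KO and did not pass (limma adjusted p = 0.0697). Its 8 probes gave -0.189 to -0.0509, and 1 was called lower when all probes were tested (limma adjusted p = 0.0442).

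Many of these genes have several probes, some of which may read pseudogene copies. The 58 members had 213 probes, of which 201 held distinct values, and 37 members had more than 1 distinct probe. In 32 of these 37 every probe differed from wild type in 1 direction in Mdr2-KO, and in 5 the signs were mixed. No member had probes called in both directions when all 35557 probes were tested. All 8 distinct probes of Rps12 were called higher (0.929 to 1.11), as were all 4 of Rpl7 (0.586 to 0.888) and all 5 of Rpl5 (0.709 to 0.878). All 5 of Rpl28 were called lower (-0.264 to -0.237). Probes of 1 gene can share sequence and are no replicates of each other.

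Probes disagreed in size for a few genes. The 2 probes of Rps14 gave 0.714 and 1.27, both called. The 2 of Rps9 gave 0.654, called, and 0.106, not called. Rps15 was not called on its brightest probe (-0.116), yet its other probes gave -0.538 and -0.346 and were called lower. Rpl23a gave 0.31 on its brightest probe and up to 0.773 on the others, and 10 of its 11 distinct probes, all but the brightest, were called when all probes were tested. The 5 probes of Rpsa gave 0.231 to 0.589, the most on the probe used, and 4 were called. In Mdr2-KO/IL6-KO against wild type the same 5 gave 0.371 to 0.409. Rps20 had 1 probe, so its fall in Mdr2-KO has no second reading.

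**Figure D3:**
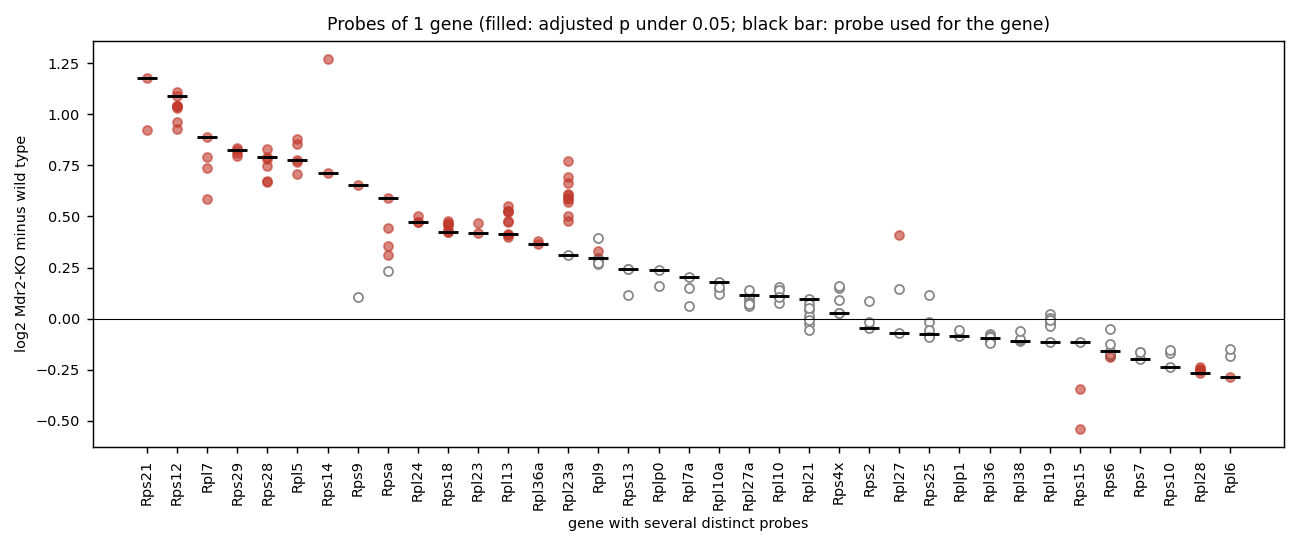
Each point is a distinct probe of 1 of the 37 genes with several probes, with its log2 difference between Mdr2-KO and wild type. Filled points passed the test over all probes and black bars mark the probe used for the gene. Probes of Rps12, Rpl5 and Rpl28 lie close together, and those of Rps14, Rps9, Rps15 and Rpl27 lie apart.

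Loss of both genes was then set against wild type. In Mdr2-KO/IL6-KO liver 6 of the 58 members rose (10.3%, against 6.96% of all genes) and none fell in limma (5.33% of all genes). At an unadjusted p under 0.05, 22 members were higher (13.3% of all genes) and 0 lower (12.2%). Arrays did not overlap with wild type for 4 members that were higher (8.57% of all genes) and 0 that were lower (6.56%). The 6 were Rps12, Rps28, Rps14, Rpl5, Rpsa and Rps3, 5 of them of the small subunit. The median over the members was 0.114, and over all genes -0.0176. The comparison shares its wild-type arrays with the first, so the sizes are given side by side only.

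Rps12 rose by 0.62 in Mdr2-KO/IL6-KO (SE 0.15, limma adjusted p = 0.0154), beside 1.09 in Mdr2-KO. Rps14 rose by 0.46 (SE 0.10, limma adjusted p = 0.00602), beside 0.71, and its arrays, from 9.92 to 10.38, lay above all wild-type arrays. Rpl5 rose by 0.45 (SE 0.11, limma adjusted p = 0.0144), beside 0.78, and ranged from 10.41 to 10.82. These 2 genes alone among the 6 did not overlap with wild type. Rps28 rose by 0.48 (SE 0.13, limma adjusted p = 0.0221), Rpsa by 0.41 (SE 0.11, limma adjusted p = 0.0218) and Rps3, found where messenger RNA enters the ribosome, by 0.35 (SE 0.10, limma adjusted p = 0.0383). Rps3 has 1 probe and lost its call when all probes were tested (limma adjusted p = 0.0613). Its call was also lost with arrays centred on their median (limma adjusted p = 0.0718) and when any of 5 of the 14 arrays was left out. Rps21 differed by 0.40 (SE 0.13, limma adjusted p = 0.0608) and Rpl7 by 0.39 (SE 0.13, limma adjusted p = 0.0657), which did not pass. The second probe of Rps21, dimmer than the one used, gave 0.382 and was called when all probes were tested (limma adjusted p = 0.0142). Rps20 (0.01), Rpl6 (0.05) and Rps10 (0.00) lay at the wild-type mean within their SE of 0.07 to 0.08.

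The count of 6 rested on single arrays. Without wild-type array 3 it was 1, Rps14, without wild-type array 1 it was 10, and without Mdr2-KO/IL6-KO array 6 it was 14. After quantile normalization 13 members passed, and with array quality weights 1. Wild-type array 3 was the lowest of the wild-type arrays in 47 of the 58 members. It was the lowest in each of the 20 that rose in Mdr2-KO.

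The arrays of Mdr2-KO/IL6-KO differed among themselves in these genes. Over the 20 members that rose in Mdr2-KO, the median distance from the wild-type mean was 0.18, 0.03 and -0.22 in the wild-type arrays. It was 0.55, 0.48, 0.61, 0.59 and 0.68 in the Mdr2-KO arrays. In Mdr2-KO/IL6-KO arrays 1 to 6 it was 0.45, 0.62, 0.39, 0.24, 0.26 and 0.08. For these 20 members array 2 thus lay among the Mdr2-KO arrays and array 6 among wild type. Over all members the median distance was 0.24 in array 2 and 0.06 to 0.19 in the Mdr2-KO arrays. Among members that fell in Mdr2-KO, array 2 read above every Mdr2-KO array for Rps20, Rpl6, Rpl28, Rpl4 and Rps10. It read 11.54 for Rps20 (Mdr2-KO 10.91 to 11.18) and 11.09 for Rpl6 (10.54 to 10.72). For Rpl3l, under the background, it lay within the Mdr2-KO range. These 20 were chosen on the Mdr2-KO and wild-type arrays, so the distance between those groups is a description. The labels give no batch for these arrays.

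**Figure D4:**
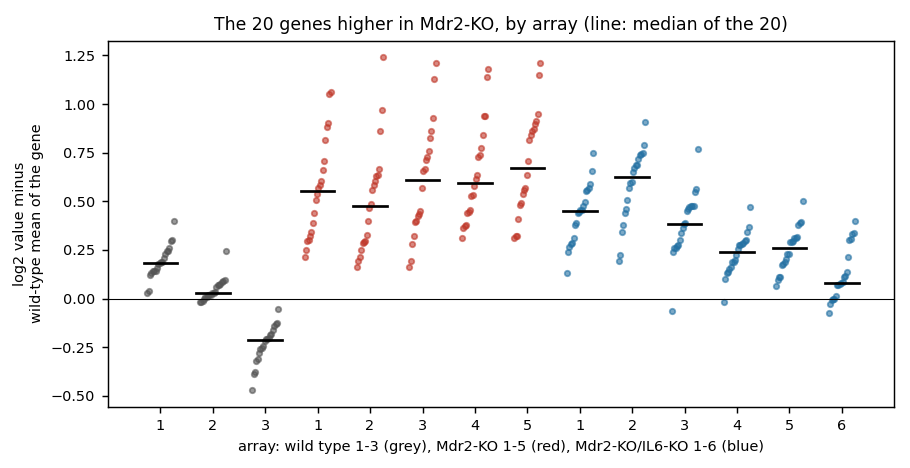
Each point is 1 of the 20 genes that rose in Mdr2-KO, as its log2 value minus its wild-type mean, on each of the 14 arrays, and the lines are medians. Mdr2-KO arrays have medians of 0.48 to 0.68, and Mdr2-KO/IL6-KO arrays spread from 0.08 to 0.62.

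The direct comparison of Mdr2-KO/IL6-KO with Mdr2-KO asks what loss of IL-6 changes in Mdr2-deficient liver. Of the 58 members 6 were higher in the double knockout (10.3%, against 5.04% of all genes) and 6 lower (10.3%, against 3.72%). The knockouts did not overlap for 6 members that were higher (4.4% of all genes) and 5 that were lower (2.94%). Higher were Rps20, Rps7, Rpl6, Rps10, Rpl19 and Rpl27. Lower were Rps21, Rpl7, Rps12, Rps29, Rpl5 and Rpl30. The median was -0.02 over the members and 0.06 over all genes. This comparison shares the Mdr2-KO arrays with the first. With arrays centred on their medians 4 members were higher and 8 lower, with a median of -0.07 over the members and 0.011 over all genes. The count of 6 lower members became 2 without Mdr2-KO array 1, 3, 4 or 5, 2 without double-knockout array 4, 5 or 6, 3 without double-knockout array 3 and 9 without wild-type array 3.

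Rps20 was higher by 0.45 (SE 0.07, limma adjusted p = 0.00205), at 11.51 ± 0.10 against 11.06 ± 0.11. Rps7 read 10.34, 10.35, 10.45, 10.53 and 10.63 in Mdr2-KO and from 10.75 to 11 (median 10.90) in Mdr2-KO/IL6-KO. Its arrays did not overlap between the knockouts (0.42, SE 0.07, limma adjusted p = 0.00374), while against wild type, at 10.77, 10.72 and 10.49, neither knockout passed. All 3 distinct probes of Rps7 were called in this comparison (0.359 to 0.418), as were all 3 of Rpl6 (0.227 to 0.333). Rpl6 itself was higher by 0.33 (SE 0.06, limma adjusted p = 0.00318).

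Rpl19, part of a bridge between the subunits, read 11.52, 11.37, 11.52, 11.51 and 11.58 in Mdr2-KO and 11.68 to 11.80 in Mdr2-KO/IL6-KO, without overlap. It was higher by 0.23 (SE 0.05, limma adjusted p = 0.0133). Of its 7 probes 1 was called, and with the mean of its probes the call was lost (limma adjusted p = 0.214). Rpl27 was higher by 0.19 (SE 0.05, limma adjusted p = 0.0262) on its brightest probe, but its 3 distinct probes ranged from -0.223 to 0.194, and with their mean the difference was -0.01 (limma adjusted p = 0.951). Rps10 was higher by 0.24 (SE 0.07, limma adjusted p = 0.04), with overlap. Of the 3 distinct probes of Rps10 1 was called, and with their mean its call was lost (limma adjusted p = 0.0668). The calls of Rpl19, Rpl27 and Rps10 thus each rest on 1 probe.

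Rps21 was lower by the most, at 8.16 ± 0.28 against 8.94 ± 0.08 (-0.78, SE 0.11, limma adjusted p = 0.00147). Its second probe gave -0.543 and was also called. Rpl7 was at 10.10 ± 0.24 against 10.60 ± 0.04 (-0.50, SE 0.11, limma adjusted p = 0.0159), with all 4 probes called. For both genes the groups did not overlap. Rps12 was lower by 0.48 log2 units (-0.48, SE 0.13, limma adjusted p = 0.0372), Rps29 differed by -0.40 (SE 0.12, limma adjusted p = 0.0451) and Rpl5 by -0.32 (SE 0.10, limma adjusted p = 0.0473). Probe support was weaker for these 3 genes: when all probes were tested, 3 of 8 distinct probes were called lower for Rps12, 2 of 5 for Rpl5 and 1 of 4 for Rps29. The probes used for Rpl5 (limma adjusted p = 0.0571) and Rps29 (limma adjusted p = 0.0555) were not among those called. Rpl23a, which did not pass on its brightest probe, had 8 of 11 distinct probes called lower. Rps14 did not pass on its brighter probe (-0.249) either, but its other probe was called lower (-0.551, limma adjusted p = 0.0208). Rpl30, which has 1 probe, read 7.49, 7.57, 7.47, 7.73 and 7.59 in Mdr2-KO and 7.21 to 7.47 in the double knockout (-0.24, SE 0.07, limma adjusted p = 0.0413). Rps21 and Rpl7 kept their call when any 1 array was left out, as did Rps20, Rps7, Rpl6 and Rpl19. Leaving out 1 array ended the call of Rps12 for 7 of the 14 arrays, Rps29 for 8, Rpl30 and Rps10 for 9, Rpl5 for 10 and Rpl27 for 4.

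The spread among members, as the SD of their log2 differences, was 0.366 in Mdr2-KO against wild type, where it was 0.307 over all genes. It was 0.175 in the double knockout against wild type (0.292 over all genes) and 0.224 between the knockouts (0.183 over all genes). Within a group the median SD of a member over arrays was 0.13 in wild type, 0.09 in the single knockout and 0.11 in the double knockout. Over all genes it was 0.13, 0.12 and 0.11. Signal strength also varied: 34 of the 58 members lay above 10.01, the level of the brightest 5% of genes. Of these 34, 10 rose (8.89% of all genes) and 5 fell (12.1% of all genes) in Mdr2-KO, with a median of 0.0337. Of the other 24, 10 rose and 1 fell, with a median of 0.225. The part of signal strength in the differences was not tested.

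By their place in RefSeq, 19 members hold at least 1 snoRNA gene within their span. Of these 19 hosts 8 rose, 3 fell and 8 did not pass in Mdr2-KO, and of the other 39 members 12 rose, 3 fell and 24 did not pass. Over all genes 8.89% rose and 12.1% fell. The hosts that rose were Rps12, Rpl5, Rpl30, Rps3, Rpsa, Rpl13, Rpl23 and Rpl23a, and those that fell were Rps20, Rpl6 and Rpl4. Rps21, Rpl7, Rps29 and Rps28, which also rose, are not hosts. Among 54 measured snoRNA genes 38 were higher in Mdr2-KO than in wild type (8.89% of all genes) and 0 lower (12.1%), with a median of 0.869. In the double knockout 20 were higher than in wild type (6.96% of all genes) and 0 lower. Against Mdr2-KO 0 were higher and 30 lower (3.72% of all genes). The median snoRNA signal was 6.33 to 6.65 on wild-type arrays, 7.11 to 7.46 in Mdr2-KO and 6.74 to 7.11 in the double knockout. That class was looked at because earlier results had shown it to differ. Its part in the differences of ribosomal protein genes was not tested.

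Genes that work with the ribosome were counted from lists of names. Of 6 ribosome components outside the symbol rule, 2 were measured. Fau, the precursor of a small-subunit protein, fell in Mdr2-KO by 0.29 on the log2 scale (-0.29, SE 0.08, limma adjusted p = 0.0168) and was higher in the double knockout than in Mdr2-KO by 0.28 (SE 0.06, limma adjusted p = 0.0155). Rpl7l1 did not pass in any comparison. Over all genes tested, 8.89% rose and 12.1% fell in Mdr2-KO. Of 27 measured translation factors and other TOP messengers, 2 rose, 4 fell and 21 did not pass there, with a median of -0.00292. Those that rose were the histone chaperone Nap1l1 (0.52, SE 0.11, limma adjusted p = 0.00531) and the initiation factor subunit Eif3e (0.33). Those that fell were Eif2s3x (-0.52), Eif3f (-0.32), Eif3m (-0.25) and Eif3k (-0.24), all of initiation factors.

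Of 22 measured regulators of ribosomal protein synthesis, 3 rose (8.89% of all genes), 4 fell (12.1% of all genes) and 15 did not pass in Mdr2-KO. Rheb, the GTPase that activates mTORC1, rose by 0.68 (SE 0.12, limma adjusted p = 0.00174) and was lower in the double knockout than in Mdr2-KO (-0.50, SE 0.10, limma adjusted p = 0.00972). The translation repressor Eif4ebp1 rose by 0.28 and the mTORC1 subunit Rptor by 0.23. The S6 kinase Rps6kb2 (-0.38), the kinase Mtor itself (-0.36), and Rrn3 (-0.31) and Ubtf (-0.31), which act in ribosomal RNA transcription, fell. Myc, a transcription factor that drives ribosome production, rose in Mdr2-KO/IL6-KO against wild type by 0.82 (SE 0.23, limma adjusted p = 0.0317). It was the 1 regulator of 22 that rose there (6.96% of all genes), while 2 fell (5.33%). Between the knockouts 2 of the 22 were higher (5.04% of all genes) and 1, Rheb, was lower (3.72%). Messenger levels do not show the activity of these kinases.

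In whole liver a change in the mix of cells and a change within cells cannot be told apart. Against wild type, 8.89% of all genes rose and 12.1% fell in Mdr2-KO, and 6.96% rose and 5.33% fell in the double knockout. Cholangiocyte markers rose in 4 of 7 in Mdr2-KO and 5 of 7 in the double knockout. Their mean signal was 5.98 to 6.50 on wild-type arrays, 6.86 to 7.72 in the single knockout and 6.90 to 7.81 in the double knockout. Stellate cell and fibroblast markers rose in 3 of 7 and 4 of 7, at 8.06 to 8.21, 8.14 to 8.94 and 8.47 to 9.0. Macrophage markers rose in 2 of 8 in each, at 8.77 to 9.04, 8.82 to 9.23 and 8.99 to 9.57. The median difference of these 8 from wild type was -0.0764 in Mdr2-KO and 0.0854 in the double knockout. T cell markers fell in 2 of 5 in each, at 6.31 to 7.03 in wild type, 5.64 to 6.27 in Mdr2-KO and 5.77 to 6.32 in the double knockout. B and plasma cell markers also fell in 2 of 5 in each, at 6.37 to 7.24, 6.06 to 6.64 and 5.95 to 6.66. No hepatocyte, endothelial (0 of 5) or dividing-cell marker (0 of 3) passed. Between the knockouts 1 macrophage marker of 8 was called, as higher, and none of the cholangiocyte, stellate, T or B cell markers. Over all genes 5.04% were higher there and 3.72% lower. The part of these cells in the differences was not tested.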

How the data were processed

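Gene expression was measured on 14 Affymetrix mouse gene arrays. The authors deposited log2 signals, and the submitters' processing notes name RMA and Partek. Versions, build, filters and pooling were not given in the sources used here. Of 35557 probes 21789 name 1 gene, and 21698 of these were matched by gene identifier to RefSeq. A gene was read on its probe of highest mean, and 19938 genes were tested with no filter. Gene tests did not use the 1621 probes that name several genes or the 12147 that name none.

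Group means were fitted in limma 3.58.1 (R 4.3.3) over all 14 arrays, with empirical Bayes moderation, 2-sided tests and Benjamini-Hochberg adjustment at 0.05. Python 3.11.15 prepared tables and matplotlib 3.10.9 drew plots. The fit was tested on simulated data. The number of arrays and signal over background limit the precision.

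Named members were, per comparison, up to 8 called rises and 8 called falls of largest size, paralogs of restricted expression with their partners and the stalk proteins. Other members given with values (Rps6, Rps9, Rps15 and Rpl23a) or in full lists of calls were chosen after their values were seen. The members and lists were chosen with earlier results of these data known. Alternatives were other normalizations, the mean of a gene's probes, a filter on dim genes, other moderation, array weights, fewer groups, a threshold of 0.01, each array left out, and, chosen after seeing the data, a test of all probes.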

Additional observations from a re-analysis of the deposited data

How the results depend on the processing

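No paired analysis was possible because the groups share no replicate numbers in the labels. Leaving out 1 array in turn gave 13 to 22 members higher and 3 to 6 lower in Mdr2-KO against wild type. In the double knockout against wild type it gave 1 to 14 higher and 0 to 0 lower, and between the knockouts 4 to 7 higher and 2 to 9 lower. The medians ranged from 0.08 to 0.17, 0.05 to 0.15 and -0.04 to -0.01. Quantile normalization left 2 members lower in Mdr2-KO and gave 13 higher in Mdr2-KO/IL6-KO against wild type. A threshold of 0.01 left 2 lower in Mdr2-KO, 1 higher in the double knockout against wild type, and 3 higher and 1 lower between the knockouts. Array quality weights gave 1 higher in the double knockout against wild type and 10 lower between the knockouts. A fit of the compared groups alone gave 3 higher in Mdr2-KO/IL6-KO against wild type. The mean of a gene's probes gave 3 higher between the knockouts, and Rpl27 turned to -0.01 there. The other alternatives, the 20 rises in Mdr2-KO among them (14 to 23), stayed within 1.5 times the reported counts. After quantile normalization the calls over all genes in Mdr2-KO against wild type were 1793 higher and 1763 lower, from 1772 and 2417, and between the knockouts 675 and 852, from 1005 and 741. With arrays centred on their median they were 1006 and 1573 in the double knockout against wild type, from 1388 and 1062, and 424 and 1056 between the knockouts. The causes were not tested. Of the 28 named members, tested for a single array far from its knockout group by Dixon's rule, 0 were found.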
